A study of Mus musculus with 6 samples.

Results

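Imprinted genes are read mainly from 1 parental copy, because only 1 of the copies carries a DNA methylation mark that was placed in the egg or the sperm. The marks sit at control regions that govern whole clusters of neighbouring genes, often through a long non-coding RNA, so genes of a cluster can be read from opposite parental copies. Dnmt3a, with its partner Dnmt3l, places most of these marks in germ cells, whereas Dnmt1 copies them at each cell division and the zinc finger protein Zfp57 helps to protect them. In blood stem cells, several imprinted genes are known as brakes on growth or cycling, among them H19, Ndn, Grb10 and the non-coding RNAs of the Dlk1-Meg3 cluster.

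The 40 imprinted genes described here were chosen by name, from 18 clusters or single loci, of which 21 genes are usually read from the paternal and 19 from the maternal copy. They were followed in total RNA of KLS cells (positive for Kit and Sca-1, negative for lineage markers, a fraction rich in blood stem and progenitor cells) from 3 wild-type and 3 Dnmt3a+/- samples, the latter with 1 disrupted copy of Dnmt3a. The labels give no strain, age, sex, deleted part or treatment, and separate mice are not named for the arrays of either genotype. The p-values therefore rest on the spread among 3 arrays per genotype, part of which may be technical. The limma fit also draws each gene's variance toward that of all genes, so its standard errors are not the gene's own spread alone. The arrays read total signal and cannot tell the parental copies apart. The copy given for a gene is the one usually named, and imprinting can be limited to certain tissues, as that of Ube3a is to neurons. Whether each member is imprinted in KLS cells was not tested. A gene's level is the mean log2 intensity of its probe sets (short stretches of the gene, each read as 1 value) that lay above the median of all probe sets, at log2 5.89. Of the 40 genes, 37 had such a probe set and were measured, among 20059 genes in all. Zim1, with 1 probe set, and Asb4, with 9, had none above that level and were not detected, and Zrsr1 has no value here because no probe set carried its name alone. For Snrpn, 14 probe sets that also name Snurf were left out, so its level rests on 4 others. The filter used the mean of all 6 arrays, so a probe set can pass through 1 genotype alone. Where an array was left out below, the probe sets of all 6 arrays were kept unless stated.

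The 37 genes rested on 468 of 746 named probe sets. Averaged over all named probe sets, 15 members lay above log2 6.39, the level under which 95% of 1061 olfactory receptor genes lay, and 24 lay at or below it. Olfactory receptors are silent in blood, so for those 24 members a signal from the gene cannot be separated from background by this mean alone. Single probe sets of some lay higher, such as 1 of Zdbf2 at 10.20 and 1 of Meg3 at 8.96. They were not compared with single probe sets of olfactory receptors. Intensities of different genes also depend on their probes and are not ranked against each other.

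Dnmt3a itself read 8.51, 8.70 and 8.50 on the wild-type and 8.38, 8.20 and 8.20 on the Dnmt3a+/- arrays, a log2 difference of -0.31 (SE 0.12, unadjusted p 0.0303, adjusted p 0.631, limma). The marker genes of the sort were present on every array: Kit averaged 10.74 ± 0.06 (wild-type) and 10.63 ± 0.03 (Dnmt3a+/-), and Ly6a, which encodes Sca-1, was 8.48 ± 0.18 and 8.46 ± 0.13 (SD, n = 3). Of 9 stem and progenitor markers, 8 were measured, with a summed intensity of 6704 to 7260 on wild-type and 6013 to 6476 on Dnmt3a+/- arrays. Of 12 markers of bone marrow stroma, a tissue rich in several imprinted transcripts, 10 were measured (not Lum and Bglap), with sums of 1317 to 1401 and 1308 to 1403. These sums hide shifts in both directions. Between genotypes 60% of the 10 did not overlap, beside 15.8% of all genes. Col1a1, Col1a2 and Sparc were higher in Dnmt3a+/- cells, and Pdgfrb, Cxcl12 and Postn were lower. Of 15 neutrophil markers, 13 were measured (not Elane and Ly6g), with sums of 12999 to 19081 and 16239 to 23462. Their part in the results below was not tested.

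No imprinted gene passed the threshold between the genotypes (limma, adjusted p 0.05 over all genes). The smallest adjusted p among the members was 0.631, and of all 20059 genes 0 passed (0%). At an unadjusted p under 0.05 there was 1 of 37 members (7.49% of all genes), Dlk1, on the higher side (2.92% of all genes), and 0 on the lower side (4.57% of all genes). The members' log2 differences, Dnmt3a+/- minus wild-type, ran from -0.52 to 0.26 with a median of 0.06, beside a median of -0.02 over all genes, and 21 were positive and 16 negative (54.3% of all genes were negative). The median turned to -0.02 without Dnmt3a+/- replicate 2, the array least like the others, and to -0.01 when the median instead of the mean of a gene's probe sets was used. Genes of the paternal copy (20 measured, median 0.08, 12 positive) and of the maternal copy (17 measured, median 0.05, 9 positive) both had a positive median.

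The precision of 3 arrays per genotype sets what these values can show. The standard errors of the members ran from 0.10 to 0.27 with a median of 0.13. For 35 of the 37 members the 95% confidence interval lay within -1 and 1, the log2 difference that corresponds to a doubling or halving of the total signal, and for 25 it lay within -0.5 and 0.5. The other two were Ndn and Nnat. Signal that does not come from the gene itself shrinks such differences on an array, which touches most the 22 measured members at or below log2 6.39. These were Rtl1, Meg3, Rian, Mirg, H19, Peg3, Usp29, Ndn, Magel2, Mkrn3 and Snrpn. The rest were Kcnq1, Phlda2, Ascl2, Peg10, Sgce, Calcr, Mest, Plagl1, Zdbf2, Slc38a4 and Dcn.

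**Figure D1:**
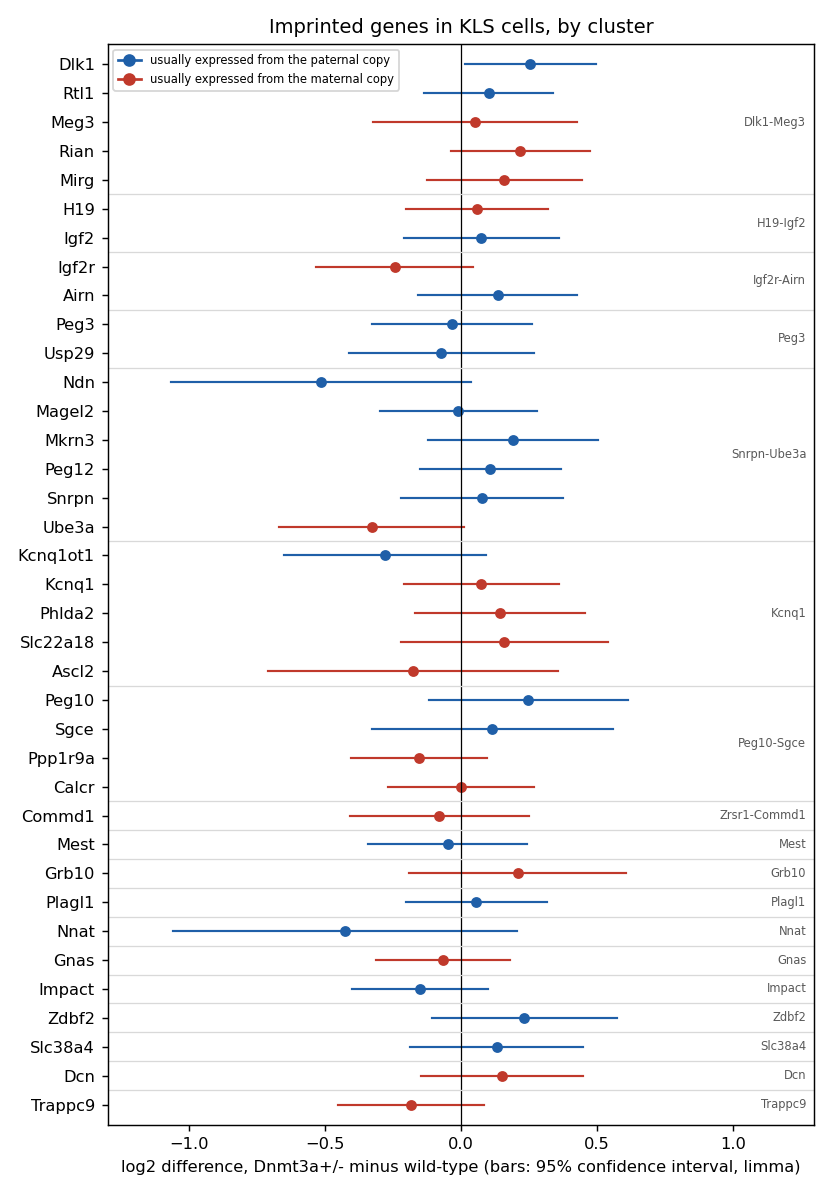
Log2 difference between Dnmt3a+/- and wild-type KLS cells (x axis) for the 37 measured imprinted genes (y axis, grouped by cluster), with points for the estimates and bars for the 95% confidence intervals of the fit with 3 arrays per genotype. Only the interval of Dlk1 (0.01 to 0.50) leaves out 0, and the intervals of Ndn and Nnat reach below -1.

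Differences moved with the level of a gene across the whole array. Among all genes up to a level of 8 the median difference was 0.02, though -0.08 between 7.5 and 8, and above 8 it was -0.13. The 33 members up to a level of 8 had a median of 0.07 with 21 positive, and the 4 above 8 (Impact, Ube3a, Gnas and Kcnq1ot1) had a median of -0.22 with 0 positive, where 78.6% of all genes above 8 were negative. The sign of the brighter members therefore lay on the side that most bright genes took. On Dnmt3a+/- replicate 2 the genes above 8 had a median of -0.27 relative to the wild-type mean, against -0.07 and -0.04 on the other Dnmt3a+/- arrays.

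**Figure D2:**
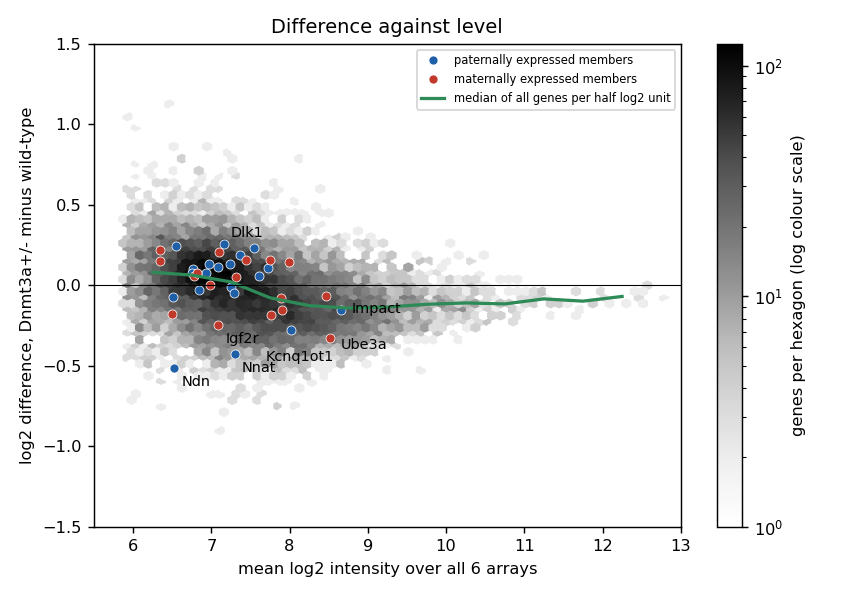
Log2 difference, Dnmt3a+/- minus wild-type (y axis), against the mean log2 intensity over all 6 arrays (x axis); grey hexagons count all genes within the axes, coloured points are the 37 members and the green line is the median of all genes. The 4 members above 8 lie below 0, on the side of the line, and most members lie between 6 and 8.

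The genotypes did not overlap for 7 of the 37 members, that is, all 3 arrays of one genotype lay above all 3 of the other (15.8% of all genes). Dlk1, Rtl1 and Rian were higher in Dnmt3a+/- cells (6.74% of all genes) and Igf2r, Ube3a, Ppp1r9a and Trappc9 were lower (9.05% of all genes). These 7 make up 18.9% of the members, a share close to that of all genes. Of the 20 genes of the paternal copy 2 were higher and 0 lower without overlap (10%). Of the 17 of the maternal copy 1 was higher and 4 were lower (29.4%). These shares are not matched for level. Of the 4, Ube3a lay above a level of 8, where 911 of 5137 genes were lower and 101 higher without overlap. Ppp1r9a and Trappc9 lay between 7.5 and 8, where the median difference of all genes was -0.08. Igf2r lay between 7 and 7.5, where it was 0.02. An exact two-sided permutation test gave 0.1 for each of the 7 members without overlap, and 3 arrays per genotype allow no smaller p.

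The Dlk1-Meg3 cluster holds the protein genes Dlk1 and Rtl1, read from the paternal copy, and the non-coding RNA genes Meg3, Rian and Mirg, read from the maternal copy in the same direction one after the other. It contains 3 of the 7 members just named, so the 250 bases before RefSeq starts of 4 of its genes, with none for Rtl1, are shown here (build GRCm38.p6, plus strand, 5′ to 3′, with each CG, the site that Dnmt3a methylates, in capitals). They are chr12:109452573-109452822 for Dlk1, chr12:109540746-109540995 for the first of the Meg3 starts listed, chr12:109603695-109603944 for Rian and chr12:109734731-109734980 for Mirg.
Dlk1: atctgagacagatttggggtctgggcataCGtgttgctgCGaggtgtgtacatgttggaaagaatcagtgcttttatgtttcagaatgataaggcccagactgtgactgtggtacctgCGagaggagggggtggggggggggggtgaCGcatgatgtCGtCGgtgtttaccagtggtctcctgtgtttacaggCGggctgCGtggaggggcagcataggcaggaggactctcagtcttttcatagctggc
Meg3: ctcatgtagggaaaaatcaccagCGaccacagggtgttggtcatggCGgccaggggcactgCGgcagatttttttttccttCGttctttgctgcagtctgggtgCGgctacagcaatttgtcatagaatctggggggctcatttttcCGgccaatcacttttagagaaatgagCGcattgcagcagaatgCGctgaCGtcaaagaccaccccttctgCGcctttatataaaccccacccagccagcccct
Rian: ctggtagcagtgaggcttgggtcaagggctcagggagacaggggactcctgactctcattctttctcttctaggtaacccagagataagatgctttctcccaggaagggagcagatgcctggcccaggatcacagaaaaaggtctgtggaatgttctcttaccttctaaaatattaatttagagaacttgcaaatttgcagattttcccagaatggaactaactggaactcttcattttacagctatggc
Mirg: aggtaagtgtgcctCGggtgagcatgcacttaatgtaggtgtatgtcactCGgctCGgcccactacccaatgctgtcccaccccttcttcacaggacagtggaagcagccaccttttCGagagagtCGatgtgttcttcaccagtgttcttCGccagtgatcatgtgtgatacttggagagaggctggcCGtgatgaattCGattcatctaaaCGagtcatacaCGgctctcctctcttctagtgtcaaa
The windows shown of Dlk1, Meg3, Rian and Mirg hold 8, 10, 0 and 10 CG, and the median over all 32851 RefSeq windows of this length was 6. TGCCGC, the core motif that Zfp57 binds when its CG is methylated, was searched on both strands and occurs once in this Meg3 window and in none of the other windows shown. Over the 32 members with a window, 7 of 52 windows hold it (13.5%, with overlapping windows of Mest counted separately), against 8.68% of all windows. The motif holds a CG, and the members' windows had a median of 9 CG against 6 over all windows. The shares at equal CG content were not tested. The window of the other Meg3 start, chr12:109545148-109545397, holds 0 CG and no TGCCGC. A match in letters is a description and not a binding site, and the deposited values hold no methylation.

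Dlk1, a membrane protein that restrains differentiation in several tissues, read 7.05, 6.94 and 7.10 on the wild-type arrays and 7.28, 7.26 and 7.31 on the Dnmt3a+/- arrays. Every Dnmt3a+/- array was thus above every wild-type array, and the Dnmt3a+/- arrays had an SD of 0.02. The log2 difference was 0.26 (SE 0.10, 95% confidence interval 0.01 to 0.50), a fold of 1.19, with an unadjusted p of 0.0401 and an adjusted p of 0.631 (limma). Of its 14 probe sets 13 had a positive difference, and 4 did not overlap between genotypes, all higher. Among the 14, probe set 4581031 (0.77) read 5.18, 5.40 and 6.22 (wild-type) against 6.16, 5.52 and 7.43 (Dnmt3a+/-). Its wild-type mean was below the filter level, so it passed through the Dnmt3a+/- arrays, and the tally of probe sets is a description only. The difference of Dlk1 stayed between 0.21 and 0.29 when any 1 array was left out, with unadjusted p from 0.0504 to 0.134 (limma).

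Rian, a long host of small nucleolar RNAs and microRNAs, read 6.22, 6.36 and 6.13 (wild-type) against 6.43, 6.51 and 6.41 (Dnmt3a+/-), a difference of 0.22 (SE 0.11, adjusted p = 0.631, limma). Only 10 of its 27 probe sets passed the filter, and with all 27 the difference was 0.11 and the genotypes overlapped. Rtl1, a retrotransposon-derived gene needed in the placenta, read 6.77, 6.76 and 6.63 (wild-type) against 6.83, 6.80 and 6.83 (Dnmt3a+/-), a difference of 0.10 (SE 0.10). The gap between its genotypes was small against that error, and the difference was -0.11 by the median of its 6 probe sets. Meg3, a non-coding RNA associated with the quiescence of long-term stem cells, read 7.38, 7.27 and 7.22 (wild-type) against 7.45, 7.58 and 7.00 (Dnmt3a+/-). Its Dnmt3a+/- arrays lay on both sides of the wild-type arrays, with a difference of 0.05 (SE 0.16) that became -0.07 without Dnmt3a+/- replicate 2 and 0.22 without Dnmt3a+/- replicate 3. Mirg, a microRNA host, differed by 0.16 (SE 0.12) with overlapping genotypes. All 5 genes of the cluster had a positive difference and a confidence interval within -0.5 and 0.5. They all lay at levels up to 8, where 46.0% of all genes had a negative difference. Of the 18 probe sets of Meg3, 10 were negative, and Mirg differed by -0.05 by the median of its probe sets.

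**Figure D3:**
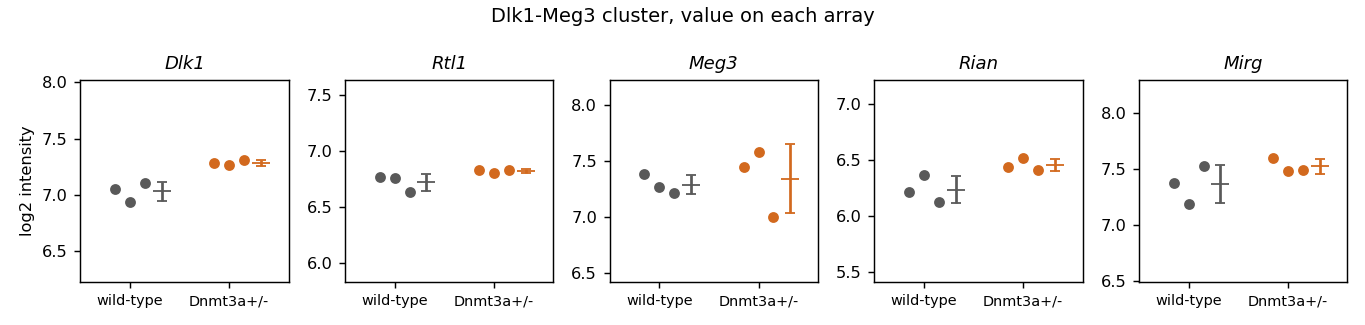
Log2 intensity (y axis, each panel spanning the same range of 1.8) of the 5 genes of the Dlk1-Meg3 cluster on each of the 3 wild-type and 3 Dnmt3a+/- arrays (points), with mean and SD beside them. The genotypes of Dlk1, Rtl1 and Rian do not overlap, while those of Meg3 and Mirg do.

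H19 and Igf2 share 1 control region and enhancers. H19, a growth-restraining non-coding RNA of the maternal copy, read 6.69, 6.73 and 6.83 (wild-type) against 6.81, 6.92 and 6.68 (Dnmt3a+/-), with a difference of 0.06 (SE 0.11). Igf2, the fetal growth factor of the paternal copy, read 6.93, 6.82 and 6.92 (wild-type) against 6.89, 7.16 and 6.84 (Dnmt3a+/-), with a difference of 0.07 (SE 0.12). Both overlapped between genotypes, and for both the highest array was Dnmt3a+/- replicate 2. The intervals, -0.20 to 0.32 for H19 and -0.21 to 0.36 for Igf2, leave out a doubling or halving of either signal. Over all its named probe sets H19 averaged 6.07, under the 6.39 of the olfactory receptors. Its signal therefore cannot be separated from background by that mean alone, and its interval speaks of total signal only.

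Igf2r, the receptor that removes Igf2 from the cell surface, is read from the maternal copy, and its antisense Airn, which silences it on the paternal copy, is read from that copy. Igf2r read 7.13, 7.37 and 7.13 (wild-type) against 6.97, 6.83 and 7.09 (Dnmt3a+/-), lower on every Dnmt3a+/- array, with a difference of -0.24 (SE 0.12, adjusted p = 0.631, limma). Airn differed by 0.13 (SE 0.13), with overlapping genotypes. The 39 probe sets of Igf2r spread widely, from -1.71 to 1.03, with 26 negative and 13 positive. Among them, probe sets 4665655 (-1.71) and 4318079 (-1.08) had a Dnmt3a+/- mean below the filter level and passed through the wild-type arrays. Probe set 4729461 (0.88) passed through the Dnmt3a+/- arrays. The mean of Igf2r includes such probe sets, so their spread and the lack of overlap are a description only. The difference of Igf2r was -0.04 with the filter at the 75th percentile of probe sets and -0.49 by the median of its probe sets (unadjusted p 0.00927, adjusted p 0.727, limma). How the labelling treated strand is not stated, and signal of the overlapping Igf2r and Airn may not be told apart.

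In the Snrpn-Ube3a region, the mouse counterpart of the Prader-Willi and Angelman region, the paternal genes and the maternal Ube3a were read. Ube3a, a ubiquitin ligase whose imprinting is limited to neurons, read 8.48, 8.76 and 8.79 (wild-type) against 8.46, 8.11 and 8.47 (Dnmt3a+/-). The genotypes were separated by a small gap between wild-type replicate 1 and Dnmt3a+/- replicate 3, and overlapped after cyclic loess. Its difference was -0.33 (SE 0.15, adjusted p = 0.631, limma), with 21 of 22 probe sets negative, and -0.21 without Dnmt3a+/- replicate 2. Ndn, a MAGE family protein that restrains cell cycling in stem cells, rested on 1 probe set and read 7.18, 6.70 and 6.48 (wild-type) against 6.02, 6.72 and 6.07 (Dnmt3a+/-). Dnmt3a+/- replicate 2 lay among the wild-type arrays, and the difference of -0.52 (SE 0.24, 95% confidence interval -1.07 to 0.04) ranged from -0.32 to -0.74 when 1 array was left out, the extremes being without wild-type replicate 1 and without Dnmt3a+/- replicate 2. The ubiquitin ligase gene Mkrn3 (0.19, SE 0.14), Peg12 (0.11, SE 0.11), the splicing protein gene Snrpn (0.08, SE 0.13) and the MAGE family gene Magel2 (-0.01, SE 0.12) overlapped between genotypes.

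The Kcnq1 cluster is silenced on the paternal copy by the non-coding RNA Kcnq1ot1, which runs antisense to the potassium channel gene Kcnq1. Kcnq1ot1 read 8.15, 8.24 and 8.07 (wild-type) against 7.92, 7.56 and 8.14 (Dnmt3a+/-), a difference of -0.28 (SE 0.16). The low value of Dnmt3a+/- replicate 2 carried much of it, since the difference was -0.12 without that array. Phlda2, a growth-restraining gene of the placenta, read 8.14, 7.70 and 7.95 (wild-type) against 8.09, 8.02 and 8.11 (Dnmt3a+/-), with a difference of 0.14 (SE 0.13). Kcnq1 (0.07, SE 0.12), the transporter gene Slc22a18 (0.16, SE 0.16) and Ascl2, a transcription factor of the placenta (-0.18, SE 0.23), overlapped as well. For Ascl2, wild-type replicate 1 stood at 7.15 with every other array between 6.25 and 6.53, and without it the difference was 0.11.

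In the Peg10-Sgce cluster, Ppp1r9a, which encodes the actin-binding neurabin, read 8.01, 8.03 and 7.90 (wild-type) against 7.89, 7.72 and 7.86 (Dnmt3a+/-). Its genotypes were separated by a narrow gap, with a difference of -0.15 (SE 0.11) and 24 of 39 probe sets negative, and they overlapped after a second quantile normalization. The retrotransposon-derived Peg10 differed by 0.25 (SE 0.16), the sarcoglycan gene Sgce by 0.12 (SE 0.19) and the calcitonin receptor gene Calcr by 0.00 (SE 0.12). Peg3, a zinc finger gene of the paternal copy, read 6.74, 6.98 and 6.84 (wild-type) against 6.80, 6.99 and 6.67 (Dnmt3a+/-), with a difference of -0.03 (SE 0.13). Its neighbour Usp29 differed by -0.07 (SE 0.15). Neither gene moved beyond the spread of its arrays.

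Grb10, an adaptor that dampens insulin and growth factor signalling, read 7.08, 6.89 and 7.03 (wild-type) against 7.05, 7.59 and 6.98 (Dnmt3a+/-). Only Dnmt3a+/- replicate 2 stood out, and the difference of 0.21 (SE 0.17) became 0.02 without it. Plagl1, a zinc finger gene regarded as a hub among imprinted genes, read 7.57, 7.50 and 7.68 (wild-type) against 7.64, 7.74 and 7.54 (Dnmt3a+/-), with a difference of 0.06 (SE 0.11). Mest, a gene of the paternal copy linked to growth, read 7.09, 7.42 and 7.44 (wild-type) against 7.30, 7.26 and 7.25 (Dnmt3a+/-), with a difference of -0.05 (SE 0.13). Both overlapped.

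Among the single loci, Trappc9, a subunit of a vesicle trafficking complex, read 7.81, 7.86 and 7.88 (wild-type) against 7.80, 7.69 and 7.51 (Dnmt3a+/-). The nearest arrays of the genotypes, 7.81 and 7.80, all but touched, the difference was -0.18 (SE 0.12), and 22 of 31 probe sets were negative. Impact, a translation regulator, read 8.78, 8.70 and 8.72 (wild-type) against 8.71, 8.51 and 8.53 (Dnmt3a+/-), a difference of -0.15 (SE 0.11) close to that of other bright genes. Gnas, which encodes a G protein subunit and has the most probe sets (47), read 8.42, 8.58 and 8.50 (wild-type) against 8.48, 8.35 and 8.46 (Dnmt3a+/-), with a difference of -0.07 (SE 0.11). Zdbf2 differed by 0.23 (SE 0.15) with all 6 of its probe sets positive, the amino acid transporter gene Slc38a4 by 0.13 (SE 0.14), the matrix proteoglycan gene Dcn by 0.15 (SE 0.13) and the copper metabolism gene Commd1 by -0.08 (SE 0.14). All of these genes except Trappc9 overlapped between genotypes.

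Nnat, a small membrane protein gene within an intron of Blcap, was singled out after its values were seen. It read 7.89, 7.28 and 7.36 (wild-type) against 7.69, 6.84 and 6.73 (Dnmt3a+/-), a difference of -0.43 with the largest error of all members (SE 0.27). Of its 22 probe sets 4 had differences below -1, down to -2.41 in probe set 5301320, which read 9.43, 6.83 and 7.25 (wild-type) against 6.36, 5.21 and 4.71 (Dnmt3a+/-). For 2 of these 4, the probe set just given among them, the Dnmt3a+/- mean was below the filter level, so they passed through the wild-type arrays. Only 1 of the 4, again the probe set just given, did not overlap between genotypes. Because it passed through the wild-type arrays, its difference and its lack of overlap are a description only. The mean of the other 18 was -0.11, and which probe sets read Nnat and which Blcap was not tested. Of the members' 468 probe sets, 18 had an unadjusted p under 0.05 (limma) on the lower side (3.41% of all 628415) and 9 on the higher side (2.8%). Of those 628415, 221209 carried 1 gene symbol, as every probe set of a member does, so the 2 sets are unlike. Over all probe sets 0 passed (limma, smallest adjusted p of the members = 0.799).

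**Figure D4:**
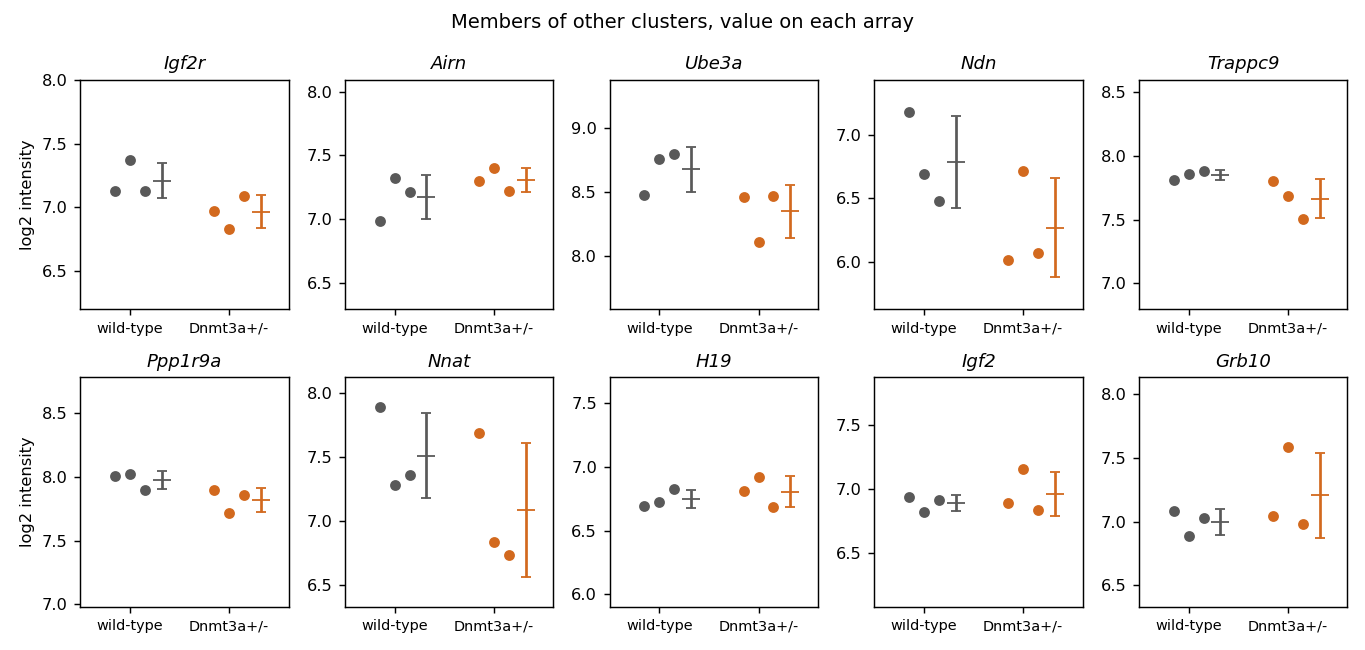
Log2 intensity (y axis, each panel spanning the same range of 1.8) of 10 imprinted genes outside the Dlk1-Meg3 cluster on each of the 3 wild-type and 3 Dnmt3a+/- arrays (points), with mean and SD beside them. Igf2r, Ube3a, Trappc9 and Ppp1r9a do not overlap between genotypes, with narrow gaps, and Grb10 is high only on Dnmt3a+/- replicate 2.

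**Figure D5:**
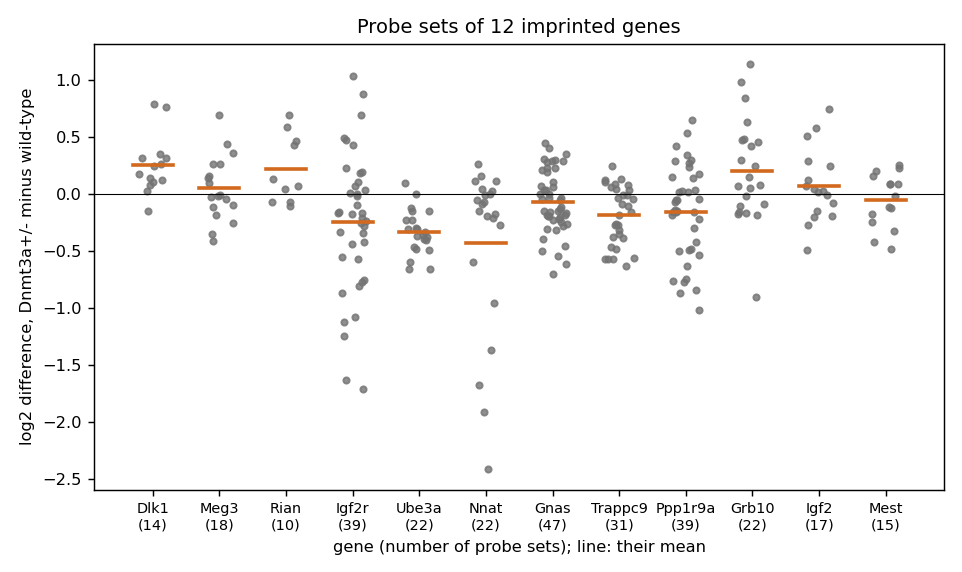
Log2 difference, Dnmt3a+/- minus wild-type (y axis), of each probe set (points) of 12 imprinted genes (x axis, with the number of probe sets), with the mean as a line. The probe sets of Dlk1 and Ube3a lie mostly on one side of 0, those of Igf2r run from -1.71 to 1.03, and 4 of Nnat lie below -1. Some probe sets, among them extremes of Igf2r and Nnat, passed the filter through 1 genotype alone.

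Genes that act with the members were read from 3 lists. Of 50 other imprinted genes 47 were measured, with 0 higher and 5 lower at an unadjusted p under 0.05 (10.6% lower, beside 4.57% of all genes) and a median difference of -0.11. The 5 were Mcts2 (-0.52, SE 0.13), a retrogene of a translation factor, the tetraspanin gene Tspan32 (-0.49, SE 0.19), the receptor gene Gpr1 (-0.38, SE 0.17), Blcap (-0.33, SE 0.14) and the paraoxonase gene Pon2 (-0.28, SE 0.11), each with an adjusted p of 0.631 (limma). Gpr1 rested on 1 probe set and overlapped between genotypes, and Mcts2 rested on 2 probe sets. Cdkn1c, a cell cycle brake of the Kcnq1 cluster, differed by 0.04 (SE 0.11). Of 24 factors that set, guard or remove imprints all 24 were measured, with 0 higher and 6 lower (25%) and a median of -0.15. Beside Dnmt3b, Tet2, Tet3 and Ehmt2, these were Zfp445, which guards imprints together with Zfp57 (-0.35, SE 0.12), and Arid4a, a chromatin protein linked to the Snrpn control region (-0.39, SE 0.15). The median level of this list was 8.25, and of all genes above a level of 8, 7.44% were lower at that p. In the insulin-like growth factor pathway 20 of 21 genes were measured, with 0 higher and 2 lower, Pik3r1 (-0.27, SE 0.10) and Tsc1 (-0.28, SE 0.11), and a median of -0.07. No gene of the 3 lists passed over all genes.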

How the data were processed

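The authors deposited 1 table of intensity values, 1 per probe set and array, made with RMA in Partek per the submitters' processing notes; no version or build is stated there. The values were linear (1.84 to 22239, array medians 59.8 to 61.6), so log2 was taken, with no pseudocount. Because RMA equalises the arrays, a shift common to most genes would be removed. Precision is limited by the number of arrays, since intensities carry no read depth.

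Probe sets with 1 symbol (318760) were named through the platform annotation, with older symbols updated through RefSeq (GRCm38.p6); 6684 with several symbols were left out. Gene values are means of named probe sets above the median probe-set mean. The test was limma 3.58.1 under R 4.3.3 (lmFit and eBayes, no covariate, Benjamini-Hochberg over all genes or all probe sets), checked on simulated data. The members and the lists were chosen with earlier results of these data known. All 40 members are accounted for. Values per array are given for members with an unadjusted p under 0.05 or non-overlapping genotypes, the 5 brightest and 10 known from stem cells; genes of the lists are named at an unadjusted p under 0.05, and Cdkn1c as a known neighbour. Promoter windows are RefSeq's, cut to the 250 bases before each start. Alternatives were the filter, the median of probe sets, cyclic loess, a second quantile normalization, array weights, a variance trend with robust estimation, a replicate block and each array left out, with the probe-set filter redone or, added after seeing the data, kept.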

Additional observations from a re-analysis of the deposited data

How the results depend on the processing

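Over all genes and all probe sets, 0 passed the adjusted threshold (limma) under each alternative run, against 1502 genes at an unadjusted p under 0.05. Members at that unadjusted p numbered 1, but 2 with the filter at the 75th percentile (6.25% of members, 7.34% of all genes), 4 with array weights (10.8%, 12.9%) and 0 to 2 with 1 array left out (0% to 5.41%, against 4.61% to 9.61%). The genotypes did not overlap for 7 members, and for 9 to 17 with 1 array left out (24.3% to 45.9%, against 22.4% to 31.8% of all genes). With all 6 arrays the count fell to 5 with no filter (12.8%, 15.2% of all genes). It was also 5 with the filter at the 75th percentile (15.6%, 15.5%) and after a second quantile normalization (13.51%, 14.95%). After cyclic loess it was 6 (16.2%, 15.3%), and by the median of probe sets it stayed at 7 (18.9%, 13.9%). The members' median of 0.06 was -0.011 by the median of probe sets and ran from -0.023 to 0.11 with 1 array left out. Arrays were left out both with the probe-set filter redone and, chosen after seeing the data, with the probe sets of all 6 arrays fixed; the ranges here cover both. With the filter redone, Ndn was -0.11 without Dnmt3a+/- replicate 1 (fixed, -0.39) and Grb10 0.066 without Dnmt3a+/- replicate 2 (fixed, 0.017). Within each pair the arrays were the same, and only the probe sets that passed the filter differed. Same-numbered arrays did not deviate together (correlations -0.05, -0.09 and 0.11), and with the replicate block 1 member, Nnat on the lower side, had an unadjusted p under 0.05.

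Of 37 members, 18 turned sign at least once under the 18 alternatives that can move a difference, which leave out the variance trend and the block, and the cause was not tested. Of the others, 16 were run under all 18 and kept their sign, and Dcn, Ndn and Rian kept it but have no value, like Ascl2 and Usp29, with the filter at the 75th percentile. By the median of probe sets, the differences of Rtl1 (-0.11), Mirg (-0.052), Igf2 (-0.0097), Airn (-0.082), Kcnq1 (-0.053), Sgce (-0.33), Calcr (0.0086) and Gnas (0.042) turned. With no filter those of Peg3 (0.048), Usp29 (0.13), Magel2 (0.090), Mkrn3 (-0.039), Sgce (-0.095), Calcr (0.018), Commd1 (0.016) and Gnas (0.013) turned. With the filter at the 75th percentile those of Igf2 (-0.14), Snrpn (-0.15), Kcnq1 (-0.040) and Calcr (0.14) turned. Array weights turned Magel2 (0.014), Ascl2 (0.028), Calcr (0.070) and Nnat (0.0029), and a second quantile normalization turned Calcr (0.00088). With 1 array left out, the range crossed 0 for Ascl2 (-0.34 to 0.11), Calcr (-0.062 to 0.072), Commd1 (-0.21 to 0.075), Igf2 (-0.023 to 0.14), Kcnq1 (-0.019 to 0.13), Magel2 (-0.084 to 0.095), Meg3 (-0.065 to 0.22), Mest (-0.16 to 0.012), Peg3 (-0.14 to 0.045), Sgce (-0.026 to 0.30), Snrpn (-0.026 to 0.16) and Usp29 (-0.21 to 0.027). Signal near background limits the dim members most.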
